A study of Mus musculus with 2 samples.

Results

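The genes described here are 8 secreted Wnt antagonists, taken by symbol out of the 32285 genes that the deposited matrices list. They are Sfrp1, Sfrp2, Frzb, Sfrp4 and Sfrp5 of the secreted frizzled-related family, Dkk2 and Dkk3 of the Dickkopf family, and Wif1. All 8 were found, and their UMIs (unique molecular identifiers, each marking 1 captured RNA molecule) were counted in 2 single-cell libraries of hindlimb muscle from female C57Bl/6J mice aged 24 months. For the ATRA+agonist library muscles received 3 injections of all-trans retinoic acid (ATRA, the active metabolite of vitamin A) with CD3254, an agonist of the receptor RXR-alpha, and BMS961, an agonist of RAR-gamma. Muscles of the DMSO vehicle library received the solvent on the same schedule. Live cells of quadriceps and gastrocnemius were sorted by their exclusion of propidium iodide. Each library pools 2 mice, which cannot be told apart in the data. No untreated, uninjected or young library enters these comparisons.

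Wnt proteins are secreted signals that bind frizzled receptors together with the co-receptors LRP5 and LRP6 and, in the canonical branch, stabilize beta-catenin. Secreted frizzled-related proteins, Frzb among them, carry a frizzled-like cysteine-rich domain and bind Wnt proteins outside the cell, as Wif1 does with a domain of another kind. Dkk2 instead acts on LRP5 and LRP6, and Dkk3 is a divergent member of its family that does not act on these co-receptors in the usual way. In muscle, Wnt signals are known for their part in regeneration and in the fibrotic change that comes with age.

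Each group is 1 library, so that there is no replicate, and the comparisons carry no p-value. Intervals are exact 95% intervals that cover counting error only, and leave out the variation between mice and between cells. After filters on detected genes, mitochondrial and hemoglobin transcripts and doublets, 6907 ATRA+agonist and 6953 DMSO vehicle cells were kept of 10444 and 17394 barcodes, with medians of 4701 and 4854 UMIs. The libraries shared 43 barcodes, 9 of them among kept cells. The cells fell into 32 clusters, of which 26 were named in 15 classes by markers. Neither the 8 antagonists nor 72 other Wnt pathway genes were used to form the clusters. Classes end in "-like" because they were rebuilt from markers.

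The classes that matter here are of the stroma and of the peripheral nerve. The FAP-like cells (fibro-adipogenic progenitors are mesenchymal cells that lie among muscle fibers) formed 3 clusters. They are called by pairs of their leading genes Cxcl14/Smoc2, Gdf10/Fst and Sema3c/Pi16, and had 9, 8 and 8 of 10 FAP markers enriched at least 2-fold. Tenocyte-like cells (tendon fibroblasts) had all 8 of their markers enriched. Perineurial-like cells, which form the sheath around nerve bundles, had 6 of 7 enriched, among them Cldn1, Slc2a1 and Itgb4. Schwann-like cells, the glia of peripheral nerve, formed a Kcna1/Cadm2 cluster and a Gm20754/Csmd3 cluster, both with Sox10 and L1cam enriched. Only 5 ATRA+agonist cells were perineurial-like, against 65 in the DMSO vehicle library, and the share of tenocyte-like cells was 2.37% with ATRA+agonist and 7.28% with vehicle.

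Promoter sequences in RefSeq (build GRCm38.p6) were matched for 5 of the 8 genes. The 250 bases before the annotated start are printed for the 4 genes on which the results below turn, on the strand of the gene, 5′ to 3′. Capitals mark matches on either strand to the GC box GGGCGG (or CCGCCC) and to the TATA box TATAAA (or TTTATA), and overlapping matches were counted separately.
Sfrp2, chr3:83766071-83766320, plus strand: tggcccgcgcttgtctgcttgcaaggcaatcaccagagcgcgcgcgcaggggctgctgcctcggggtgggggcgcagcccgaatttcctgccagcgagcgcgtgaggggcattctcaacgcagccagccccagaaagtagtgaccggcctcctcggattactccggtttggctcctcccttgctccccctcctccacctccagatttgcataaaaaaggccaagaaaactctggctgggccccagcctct
Dkk2, chr3:132085042-132085291, plus strand: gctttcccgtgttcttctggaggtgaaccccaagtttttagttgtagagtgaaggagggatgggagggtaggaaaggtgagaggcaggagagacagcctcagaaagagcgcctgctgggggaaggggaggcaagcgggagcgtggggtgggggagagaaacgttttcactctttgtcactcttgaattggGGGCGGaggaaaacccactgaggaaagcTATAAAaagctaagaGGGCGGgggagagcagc
Wif1, chr10:121033754-121034003, plus strand: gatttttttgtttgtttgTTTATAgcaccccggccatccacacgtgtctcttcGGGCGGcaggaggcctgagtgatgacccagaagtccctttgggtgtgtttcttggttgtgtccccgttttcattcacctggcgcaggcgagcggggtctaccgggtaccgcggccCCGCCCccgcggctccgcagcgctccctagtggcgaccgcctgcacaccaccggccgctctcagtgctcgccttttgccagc
Sfrp5, chr19:42202253-42202502, minus strand: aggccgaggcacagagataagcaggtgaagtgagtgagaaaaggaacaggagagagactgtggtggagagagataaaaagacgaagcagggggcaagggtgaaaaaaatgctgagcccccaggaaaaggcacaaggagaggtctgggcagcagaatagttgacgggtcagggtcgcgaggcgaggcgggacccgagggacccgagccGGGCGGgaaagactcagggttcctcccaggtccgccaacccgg

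These 4 promoters are shown because Sfrp2, Dkk2 and Wif1 had higher levels in the ATRA+agonist library in stromal classes, while Sfrp5 marked the nerve sheath. GC content ran from 55.6% in Dkk2 to 63.6% in Sfrp2, above the median of 52.4% over 32851 promoter windows of the same length. GGGCGG was found in Dkk2, Wif1, Sfrp5 and Frzb but not in Sfrp2, and in 32.7% of all promoters. TATAAA was found in Dkk2 close to the annotated start and in Wif1, against 12.4% of all promoters. The half-site AGGTCA, which retinoic acid receptors and other nuclear receptors can bind, was in none of the 5 windows and in 14.0% of all promoters. CTTTGA, the core read by the TCF/LEF factors of Wnt signaling, was found in Frzb and in 13.8% of all promoters. A match of letters is no binding site, and its lack in a window this short says nothing about the receptors. In the GENCODE annotation of GRCm38 the other members lie at chr8:23411502-23449632 (Sfrp1), chr13:19623104-19632994 (Sfrp4), chr7:112116017-112159057 (Dkk3) and chr2:80411970-80447625 (Frzb), and levels below refer to reads from their 3′ ends. The RefSeq and GENCODE starts differ for Frzb and Wif1. Most of the Frzb window, chr2:80447397-80447646 on the minus strand, lies inside the GENCODE gene, as do its motif matches. The Wif1 window runs past the GENCODE start at 121033960. Capture differs between genes, so that levels are compared between cells and not between genes.

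The antagonists were divided among the stromal and nerve classes, and were low in other named classes. FAP-like cells held 94.1% of all Dkk2 UMIs of the ATRA+agonist library and 92.6% of those of the DMSO vehicle library, and 93.2% and 93.9% of the Sfrp4 UMIs. Tenocyte-like cells held 97.5% and 98.0% of the Wif1 UMIs. Sfrp5 was divided between perineurial-like cells (42.9% and 55.2%) and Schwann-like cells (36.4% and 40.2%). In endothelial-like cells, the most numerous class with 1935 and 2153 cells, every antagonist but Dkk2 was below 1 UMI per 1000000 UMIs of the class (CPM), and Dkk2 stood at 2.94 and 2.09 CPM.

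**Figure D1:**
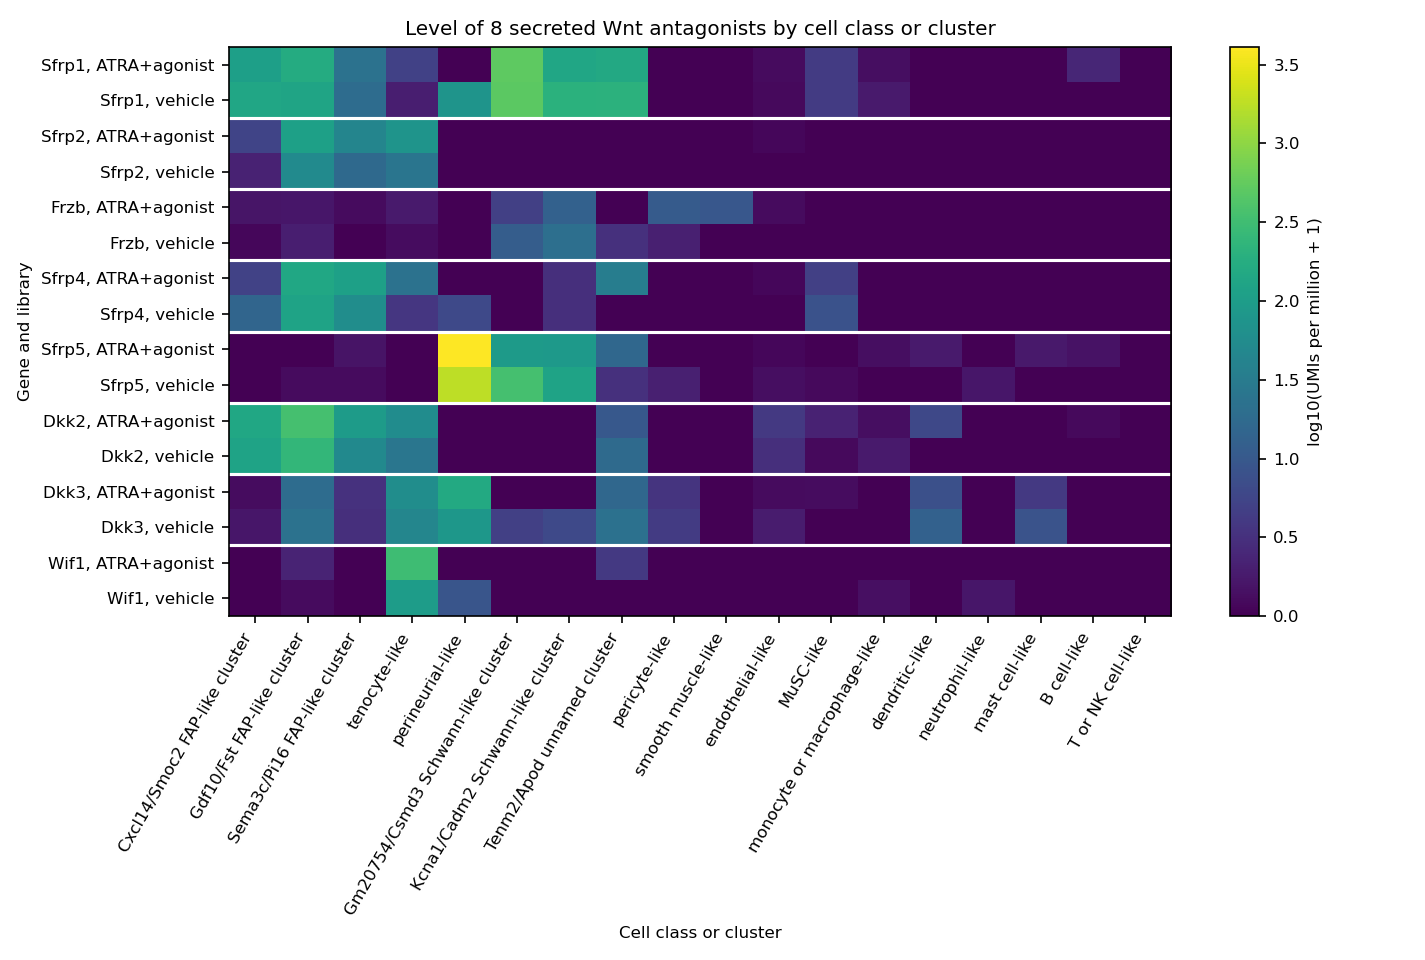
Level of each antagonist (rows, 1 per gene and library) in 18 cell classes or clusters (columns), as log10 of CPM with 1 added; colors are to be compared along a row, not between genes. Sfrp5 is brightest in perineurial-like cells, Wif1 in tenocyte-like cells and Dkk2 in the Gdf10/Fst FAP-like cluster, while endothelial-like and most immune columns are dark.

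Sfrp1 was the antagonist of both glia and fibroblasts. In the Gm20754/Csmd3 Schwann-like cluster it had 136 UMIs in 44 ATRA+agonist cells (518 CPM, 95% interval 435 to 613) and 520 UMIs in 178 DMSO vehicle cells (496 CPM, 454 to 540). It was detected there in 79.5% and 84.3% of cells, and no more than 14 UMIs came from any cell, so that the level was spread over the cluster. In the Kcna1/Cadm2 Schwann-like cluster the level was lower, at 138 CPM (107 to 175) and 203 CPM (175 to 234), with Sfrp1 in 26.7% and 33.2% of cells. Over both Schwann-like clusters and both libraries Sfrp1 was 1.73 log2 units above FAP-like cells (1.62 to 1.84). This order of the pooled classes held in each library, with differences of 1.47 and 1.80. The Gm20754/Csmd3 cluster held 136 of 203 and 520 of 713 Schwann-like Sfrp1 UMIs. With ATRA+agonist the Kcna1/Cadm2 cluster was below the Gdf10/Fst FAP-like cluster, whose level is given in the next paragraph. With 15% of cells removed as doublets, a class named perineurial-like grew to 79 and 141 cells and reached the level of the Schwann-like cells (log2 difference -0.02).

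Among FAP-like cells, Sfrp1 had 108 and 134 CPM in the Cxcl14/Smoc2 cluster and 163 and 128 CPM in the Gdf10/Fst cluster, but 22.0 and 18.1 CPM in the Sema3c/Pi16 cluster. The Pi16 cells were thus the low group in both libraries. Within the Cxcl14/Smoc2 cluster, cells with at least 2 Sfrp1 UMIs had more Apod, a lipid-binding carrier, at 5175 against 1224 CPM with ATRA+agonist and 9996 against 1369 CPM with vehicle. Trf (transferrin) and Thrsp, a gene of lipid synthesis, were also higher in the Sfrp1 cells of both libraries, by log2 differences of at least 2.25 and 2.51. An unnamed cluster led by Tenm2 and Apod, with 44 and 63 cells, had Sfrp1 at 152 and 208 CPM. Perineurial-like cells of the DMSO vehicle library had 28 Sfrp1 UMIs in 20 of 65 cells (73.3 CPM), and the 5 ATRA+agonist cells had 0, where a floor of 3 counts is 155 CPM.

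Sfrp2 was found in few cells, and a small number of these held most of its UMIs. In the Gdf10/Fst cluster 41 of 326 ATRA+agonist cells (12.6%) held 347 UMIs, and 36 of 514 DMSO vehicle cells (7.0%) held 203. The highest cells had 58 and 43 UMIs, and the 5% of cells with the most UMIs held 85.9% and 95.1% of the total. The level there was 112 CPM (100 to 124) with ATRA+agonist and 52.5 CPM (45.6 to 60.3) with vehicle. Tenocyte-like cells had 72.8 CPM (58.6 to 89.4) and 24.1 CPM (18.8 to 30.3), and the Sema3c/Pi16 cluster 43.0 and 16.0 CPM. In the Cxcl14/Smoc2 cluster, the largest of the FAP-like clusters, Sfrp2 was low, with 30 UMIs in 634 cells and 7 UMIs in 699 cells. It was thus higher with ATRA+agonist in all 4 of these groups, and over all kept cells there were 633 UMIs in 124 cells against 341 UMIs in 95 cells. How its UMIs were divided between tenocyte-like and FAP-like cells moved with the processing. They held 163 and 793 UMIs over both libraries here, 425 and 531 at a clustering resolution of 2.5, and 513 and 509 without doublet removal.

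Dkk2 was found in all 3 FAP-like clusters and in tenocyte-like cells. It stood at 354 CPM (334 to 376) and 249 CPM (233 to 265) in the Gdf10/Fst cluster, and at 140 and 123 CPM in the Cxcl14/Smoc2 cluster. The Sema3c/Pi16 cluster had 94.1 and 50.9 CPM, and tenocyte-like cells had 56.8 and 25.1 CPM. From 8.22% to 29.8% of the cells of a FAP-like cluster held a Dkk2 UMI, and up to 73 UMIs came from 1 cell. In the cells with at least 2 Dkk2 UMIs of the Cxcl14/Smoc2 cluster, the growth factor binding gene Igfbp3 stood at 115 against 24.5 CPM in other cells with ATRA+agonist, and at 357 against 110 CPM with vehicle.

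In the Gdf10/Fst cluster, Sfrp2 was mostly found in cells that also held Dkk2. When the cells of the Gdf10/Fst cluster were thinned to 4000 UMIs each, 21 of 27 ATRA+agonist cells with Sfrp2 also had Dkk2, where the product of the separate shares gives 7.27 cells. In the DMSO vehicle library it was 19 of 24 cells, against 5.35. The share was lower in the other groups, at 8 of 33 and 2 of 13 cells with Sfrp2 in the Sema3c/Pi16 cluster (products 4.57 and 0.686) and at 4 of 11 and 6 of 17 in tenocyte-like cells (products 0.877 and 0.812). Dkk2 was found in fewer cells of these groups, and these counts were above their products too. In the Gdf10/Fst cluster Sfrp1 and Dkk2 were both detected in 40 and 35 cells, against products of 24.2 and 24.9. Sfrp4 and Dkk2 were both detected in 12 cells of each library, close to the products of 12.1 and 9.58. Sfrp2 and Dkk3 were both detected in 0 and 3 cells, against 1.52 and 1.82. The Sfrp2 cells of this cluster (at least 2 UMIs) also had more Fmod, at 165 against 30.8 CPM and 375 against 5.52 CPM, and more Kcnma1, at 214 against 56.9 CPM and 400 against 33.6 CPM. Fmod (fibromodulin, a collagen-binding proteoglycan) and Kcnma1 (a potassium channel) were also among the 10 leading genes of the tenocyte-like cluster. Lox, which cross-links collagen, was higher in the Sfrp2 cells by log2 differences of 2.08 and 2.14. These genes were picked for their difference, and the values describe the cells. The Sfrp2 cells were deeper than the others, with medians of 11177 against 9131 UMIs and 9513 against 7076 UMIs.

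**Figure D2:**
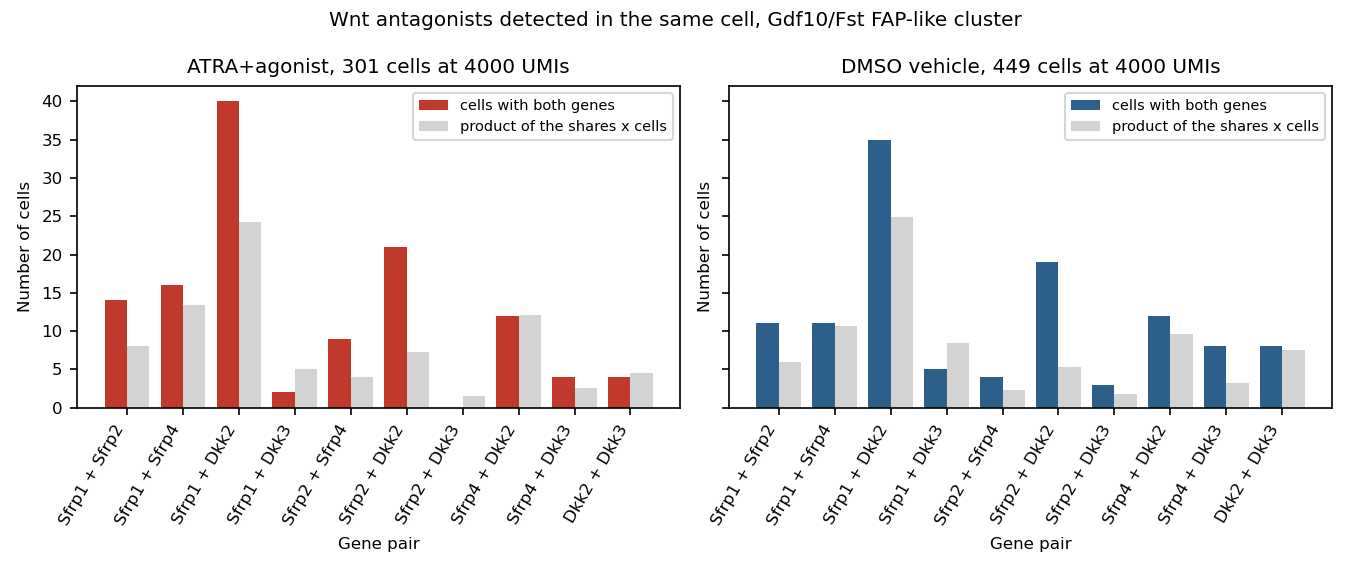
Number of cells of the Gdf10/Fst FAP-like cluster in which 2 antagonists were both detected (colored bars) beside the product of their shares times the number of cells (grey bars), for 301 ATRA+agonist cells (left) and 449 DMSO vehicle cells (right) thinned to 4000 UMIs. Sfrp2 with Dkk2 stands out, with 21 and 19 cells against products of 7.27 and 5.35.

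Sfrp4 was found in the Gdf10/Fst and Sema3c/Pi16 clusters. The Gdf10/Fst cluster had 140 CPM (127 to 153) with ATRA+agonist and 122 CPM (111 to 133) with vehicle, and in each library 1 cell alone held 90 and 69 of the 434 and 470 UMIs. In the Sema3c/Pi16 cluster the level was 112 CPM (101 to 123) and 58.3 CPM (50.5 to 67.1), and Sfrp4 was more evenly spread, in 38.4% and 22.2% of cells. The Cxcl14/Smoc2 cluster was low, at 4.24 and 14.1 CPM, and 48 of its 83 DMSO vehicle UMIs came from 1 cell. Foxp2, a transcription factor, and Aebp1, a matrix protein, were higher in the Sfrp4 cells of the Gdf10/Fst cluster in both libraries, by at least 1.70 and 1.43 on the log2 scale. Muscle stem cell-like (MuSC-like) cells had a low level of 3.90 and 7.08 CPM from 13 and 28 UMIs.

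Sfrp5 was the antagonist of the nerve sheath and of Schwann-like cells. In the DMSO vehicle library perineurial-like cells held 671 UMIs in 59 of 65 cells (1756 CPM, 1626 to 1894), with up to 33 UMIs in 1 cell. The 5 ATRA+agonist cells of this class held 27, 10, 27, 5 and 10 UMIs, 4087 CPM together. The Schwann-like cells followed at 89.5 CPM (69.4 to 114) with ATRA+agonist and 244 CPM (223 to 267) with vehicle, and every other named class held at most 3 UMIs in each library. An unnamed cluster led by Cfd and Ccl8, with a low median of 1214 and 1407 UMIs per cell, had 25 and 46 Sfrp5 UMIs (97.5 and 234 CPM). Perineurial-like cells were 2.84 log2 units above Schwann-like cells in the DMSO vehicle library (2.67 to 3.02). In the Gm20754/Csmd3 Schwann-like cluster Sfrp5 had 24 UMIs in 15 of 44 ATRA+agonist cells and 372 UMIs in 114 of 178 DMSO vehicle cells (91.4 and 355 CPM). In the Kcna1/Cadm2 cluster it had 43 and 117 UMIs (88.5 and 123 CPM).

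The Sfrp5 cells of the Kcna1/Cadm2 cluster were a small group with other genes of connective tissue and of the sheath. The 9 ATRA+agonist and 26 DMSO vehicle cells with at least 2 Sfrp5 UMIs had Dcn (decorin, a matrix proteoglycan and FAP marker) at 1744 and 2211 CPM, against 7.07 and 16.0 CPM in the other cells of the cluster. Cldn1, a tight junction gene and perineurial marker, stood at 81.5 and 115 CPM against 0 and 1.23 CPM. Of the 7 perineurial markers, 5 were higher than in the other cells in both libraries (Cldn1, Slc2a1, Itgb4, Tenm2 and Ntn4). Of the 10 FAP markers, 5 were as well (Dcn, Gsn, Col3a1, Mfap5 and Pcolce), while Pdgfra was at 0 in both groups of cells and Lum below 3 CPM. Col1a1 was lower in the Sfrp5 cells of both libraries, at 212 against 459 CPM with ATRA+agonist and 303 against 352 CPM with vehicle. Clec3b was at 0 in the Sfrp5 cells of both libraries, and Ly6a differed in direction between the libraries. The part that mixed droplets had in this group was not tested.

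**Figure D3:**
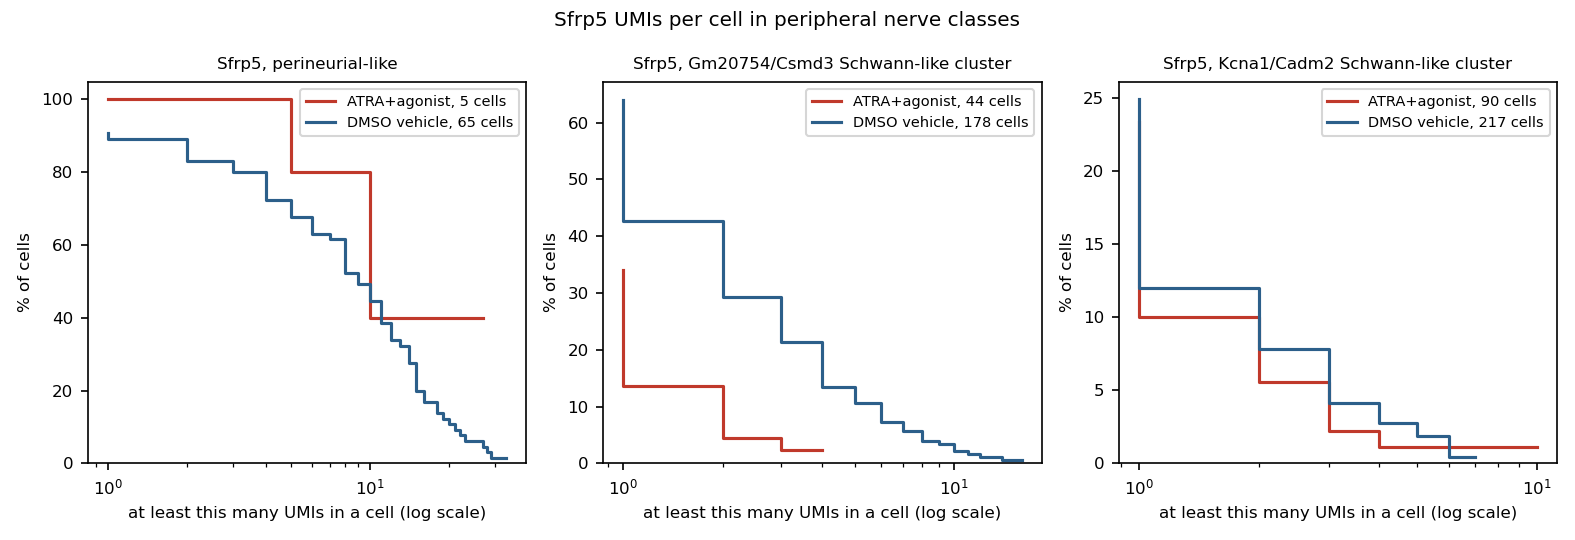
Percent of cells (vertical axis) with at least the given number of Sfrp5 UMIs (horizontal axis, log scale) in perineurial-like cells and in the Schwann-like clusters, for ATRA+agonist (red) and DMSO vehicle (blue). All 5 ATRA+agonist perineurial-like cells hold Sfrp5, and in the Gm20754/Csmd3 cluster the ATRA+agonist curve starts at 34.1% and the vehicle curve at 64.0%.

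How many Sfrp5 cells there were depended on the doublet step. Over all kept cells the ATRA+agonist library had 184 Sfrp5 UMIs in 58 cells and the DMSO vehicle library 1215 UMIs in 251 cells. Before doublets were removed, the counts were 670 UMIs in 140 cells and 1641 UMIs in 311 cells. Cells with Sfrp5 and at least 3 perineurial markers fell at this step from 37 to 11 in the ATRA+agonist library and from 85 to 69 in the DMSO vehicle library. Without doublet removal the class held 32 and 76 cells, and its log2 ratio of ATRA+agonist over vehicle was -0.19 (-0.37 to -0.01) instead of 1.22 (0.86 to 1.56). In Schwann-like cells the ratio was then -0.21 (-0.42 to -0.01) instead of -1.45 (-1.84 to -1.08). Under the 11 alternatives the ratio ran from -3.72 to 2.12 in perineurial-like cells, so that no direction can be given there, and from -2.12 to -0.21 in Schwann-like cells.

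Dkk3 had its highest levels in tenocyte-like and perineurial-like cells, and FAP-like cells held many of its UMIs too. Of 167 ATRA+agonist and 305 DMSO vehicle UMIs, FAP-like cells held 66 and 95, and tenocyte-like cells 72 and 132. Tenocyte-like cells had 57.6 CPM (45.1 to 72.6) with ATRA+agonist and 44.1 CPM (36.9 to 52.3) with vehicle, in 27.4% and 19.2% of cells. DMSO vehicle perineurial-like cells had 81.1 CPM (55.1 to 115) from 31 UMIs in 22 of 65 cells, and the 5 ATRA+agonist cells held 3 UMIs. Under the alternatives the log2 fold of perineurial-like cells over the next class ran from -3.10 to 0.81. The Gdf10/Fst cluster had 18.0 and 21.7 CPM, while the Sema3c/Pi16 cluster had 2.26 and 2.07 CPM. Over all kept cells Dkk3 was lower with ATRA+agonist by 0.91 on the log2 scale. With each class given the share of UMIs it had in the DMSO vehicle library, Dkk3 was instead 0.05 higher. In that value the 5 ATRA+agonist perineurial-like cells, with 155 CPM from 3 UMIs, count for 0.943% of UMIs instead of 0.0464%.

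Wif1 was the antagonist of tenocyte-like cells. In these cells it had 388 UMIs in 58 of 164 ATRA+agonist cells (311 CPM, 280 to 343) and 295 UMIs in 80 of 506 DMSO vehicle cells (98.6 CPM, 87.7 to 111). The highest cells held 54 and 16 UMIs, and the 5% of cells with the most UMIs held 53.4% and 69.5% of the total. The log2 ratio between the libraries was 1.65 (1.43 to 1.88), and 1.53 (1.30 to 1.77) without the cell with the most UMIs in each library. ATRA+agonist tenocyte-like cells were deeper, with medians of 7145 against 5226 UMIs. After thinning to 1000 UMIs, Wif1 was detected in 18.1% of 160 cells and 6.55% of 504 cells. Under the 11 alternatives the ratio ran from 1.45 to 1.75. Over all kept cells Wif1 had 398 UMIs in 63 ATRA+agonist cells and 301 UMIs in 84 DMSO vehicle cells (9.56 and 7.43 CPM). The log2 ratio over all kept cells was 0.36 (0.14 to 0.58). The higher share of Wif1 cells within the class thus came with fewer tenocyte-like cells, and not with more Wif1 cells in the library.

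Of the 8 tenocyte markers, 6 were higher in both libraries in the tenocyte-like cells with Wif1 than in the others. Kera (keratocan, a matrix proteoglycan) differed the most, at 1042 against 341 CPM and 934 against 322 CPM. Thbs4 differed the least of the 6, by log2 values of 0.04 and 0.11. Mkx stood at 318 against 288 CPM with ATRA+agonist and at 314 against 375 CPM with vehicle. The Wif1 cells were deeper than the others, with medians of 8061 against 6673 UMIs and 5764 against 5141 UMIs. Cells with at least 2 Wif1 UMIs had the tendon regulator Scx at 368 against 347 CPM in the other cells with ATRA+agonist and at 196 against 217 CPM with vehicle, and Tnmd differed by log2 values of 0.29 and 0.39. They had more Igfbp5, a binding protein of insulin-like growth factors, at 4576 against 1089 CPM and 4221 against 817 CPM. The bone morphogenetic protein receptor Bmpr1b stood at 375 against 87.6 CPM and 338 against 81.6 CPM, and the collagen-processing protease Adamts3 at 585 against 146 CPM and 586 against 155 CPM. Pappa2, a protease that cleaves Igfbp5, was higher in the Wif1 cells of both libraries too, by at least 1.64 on the log2 scale. Of the 17 DMSO vehicle cells with Dkk2 among those thinned to 4000 UMIs, 6 also had Wif1, against a product of the shares of 2.63 cells, and with ATRA+agonist 9 of 11 did, against 3.75.

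**Figure D4:**
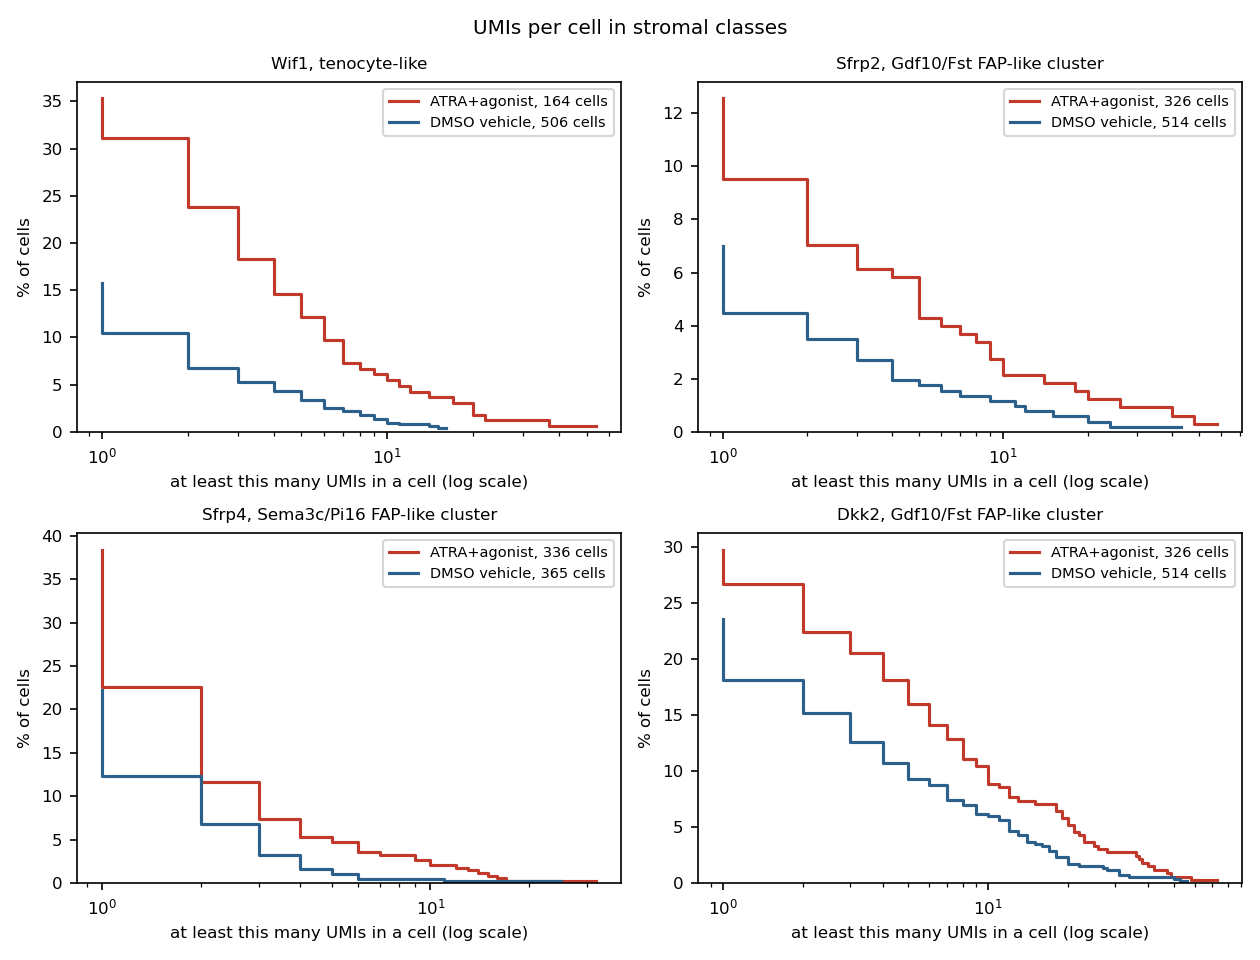
Percent of cells (vertical axis) with at least the given number of UMIs (horizontal axis, log scale) for Wif1, Sfrp2, Sfrp4 and Dkk2 in the class or cluster named above each panel, for ATRA+agonist (red) and DMSO vehicle (blue). The ATRA+agonist curve starts higher in every panel, at 35.4% against 15.8% of cells for Wif1 and 12.6% against 7.0% for Sfrp2.

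Frzb was close to the limit of detection. It had 28 ATRA+agonist and 38 DMSO vehicle UMIs over all kept cells, of which Schwann-like cells held 7 and 30, in 4.48% and 5.57% of cells. Pericyte-like cells had 8 UMIs with ATRA+agonist and 1 with vehicle. A difference between the libraries in Schwann-like cells was not detectable at this depth (log2 ratio -0.68, -2.11 to 0.54).

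The comparison of the libraries asked whether the antagonists differed after activation of the retinoic acid pathway. Genes with at least 50 UMIs over both libraries were compared, and a gene was called where it differed at least 2-fold. In tenocyte-like cells 3 of 4 antagonists were called higher with ATRA+agonist (Wif1, Sfrp2 and Dkk2), where 0.976% of 8503 genes were called higher, and 0 of 4 were called lower, where 2.85% of genes were. The log2 ratios were 1.60 (1.14 to 2.06) for Sfrp2 and 1.18 (0.69 to 1.67) for Dkk2, and Dkk3 stood at 0.38 (-0.05 to 0.81). The Sfrp2 ratio rests on 12 and 26 cells, and was 0.38 (-1.14 to 1.72) from the 7 and 17 UMIs left after thinning to 1000 UMIs. Dkk2 was detected in 11.6% and 4.15% of cells. When cells were thinned to 4000 UMIs, 8 of 11 ATRA+agonist cells with Sfrp2 also had Wif1, against a product of 3.75. With vehicle 7 of 17 did, against 2.63. The 3 calls thus rest in part on the same cells. Sfrp4, with 27 and 8 UMIs in 3.66% and 1.19% of cells, was under the limit of 50 UMIs. It had a log2 ratio of 3.01 (1.84 to 4.36).

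In the Gdf10/Fst cluster 1 of 5 antagonists was called higher (Sfrp2, log2 ratio 1.09, 0.83 to 1.34), where 0.901% of all genes were, and 0 of 5 were called lower, where 1.29% of genes were. In the Sema3c/Pi16 cluster it was again Sfrp2 alone of 4 (1.43, 0.97 to 1.90), beside 0.849% of genes called higher, with 0 of 4 lower beside 1.42% of genes. Sfrp4 and Dkk2 of this cluster were just inside the 2-fold limit, at 0.94 (0.69 to 1.19) and 0.89 (0.62 to 1.16). In the Cxcl14/Smoc2 cluster 0 of 3 antagonists were called higher, where 0.597% of genes were, and 1 of 3 was called lower, where 1.62% were. This was Sfrp4, whose ratio of -1.73 (-2.41 to -1.10) was -0.66 (-1.46 to 0.13) without the cell with the most UMIs in each library. Sfrp2 had 30 and 7 UMIs in this cluster, too few for a call, and a ratio of 1.93 (0.72 to 3.36).

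Over all FAP-like cells, 0 of 5 antagonists were called in either direction, beside 0.628% of genes called higher and 1.71% called lower. Sfrp2 came closest, with a log2 ratio of 0.99 (0.77 to 1.21) that ran from 0.73 to 1.64 under the alternatives. Dkk2 followed at 0.33 (0.24 to 0.42), then Sfrp4 at 0.18 (0.04 to 0.32), Sfrp1 at -0.07 (-0.18 to 0.04) and Dkk3 at -0.54 (-1.02 to -0.07). The 5 had a median of 0.18, and all 13067 genes compared had a median of 0.01. ATRA+agonist FAP-like cells were deeper, with medians of 9940 against 8017 UMIs, and after thinning to 1000 UMIs Sfrp2 was detected in 2.39% and 1.27% of them.

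In Schwann-like cells Sfrp5 was called lower with ATRA+agonist and Sfrp1 was not called, beside 3.28% of 7368 genes called lower, and 0 of 2 were called higher, beside 0.896%. The Sfrp5 value depended on the doublet step, as given above. In the Kcna1/Cadm2 cluster 0 of 2 antagonists were called, where 0.781% of genes were called higher and 2.23% lower. In the Gm20754/Csmd3 cluster Sfrp5 was called lower, beside 4.63% of genes, and 0 of 2 were called higher, beside 1.74%. Sfrp1 had a log2 ratio of -0.39 (-0.63 to -0.17) over all Schwann-like cells, of 0.06 (-0.22 to 0.34) within the Gm20754/Csmd3 cluster and of -0.56 (-0.98 to -0.15) within the Kcna1/Cadm2 cluster. Without doublet removal the ratio over all Schwann-like cells was 0.01.

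**Figure D5:**
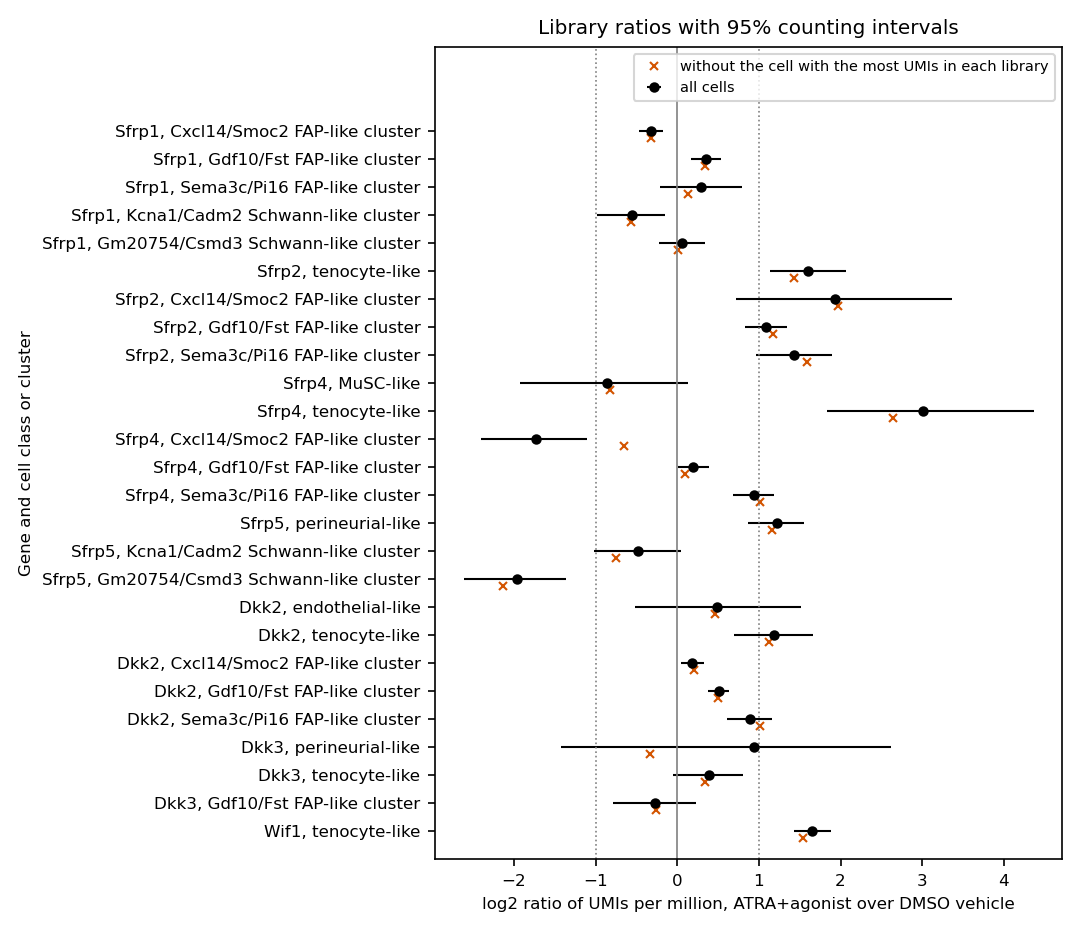
Log2 ratio of CPM, ATRA+agonist over DMSO vehicle (horizontal axis), of each antagonist with at least 30 UMIs in a class (FAP-like and Schwann-like cells by cluster), with 95% counting intervals (bars) and the value without the cell with the most UMIs in each library (crosses); dotted lines mark a 2-fold difference. All 4 Sfrp2 intervals and the Wif1 interval lie above 0, and the cross for Sfrp4 in the Cxcl14/Smoc2 cluster lies far from its point.

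Of 72 other genes of the Wnt pathway, 42 had at least 50 UMIs in FAP-like cells. Of these, 0 were called higher and 1 was called lower with ATRA+agonist, beside the 0.628% and 1.71% of all genes given above. The gene was Myc, a transcription factor and a target of Wnt and other signals, at 74.8 against 155 CPM (log2 ratio -1.05, -1.16 to -0.94). The ligand Wnt5a, which mostly signals without beta-catenin, stood at 70.0 and 45.3 CPM in FAP-like cells (0.63, 0.48 to 0.78). It was called higher in the Sema3c/Pi16 cluster, as 1 of 34 pathway genes beside 0.849% of all genes, at 65.0 against 30.2 CPM (1.11, 0.76 to 1.46). In each of the other FAP-like clusters 2 of 35 pathway genes were called lower, beside 1.62% of all genes in the Cxcl14/Smoc2 and 1.29% in the Gdf10/Fst cluster. These were Myc and the ligand Wnt9a, which stood at 8.47 against 19.9 CPM and at 15.8 against 32.6 CPM. In the Sema3c/Pi16 cluster Myc was just inside the 2-fold limit, at 90.4 against 175 CPM (-0.95, -1.15 to -0.75). Nkd1, a target and inhibitor of the pathway, had 39 and 24 UMIs in the Gdf10/Fst cluster and was the 1 gene of 35 called higher there, beside 0.901% of all genes. Axin2, a common readout of beta-catenin signaling, had 25 and 39 UMIs in FAP-like cells (-0.66, -1.44 to 0.11).

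Among the 32 pathway genes compared in the tenocyte-like class, 0 were called in either direction, beside 0.976% of all genes called higher and 2.85% lower, and their median log2 ratio was -0.19. The co-receptor Lrp6, which Dkk2 can bind, had 156 and 196 CPM there, and the frizzled receptor Fzd1 had 78.4 and 111 CPM. Kremen1, also listed as a receptor, went the other way, at 32.8 and 18.4 CPM (log2 ratio 0.84, 0.22 to 1.45). In Schwann-like cells 1 of 23 was called higher, Nkd1, with 37 and 41 UMIs, beside 0.896% of all genes, and 0 were called lower, beside 3.28%. In the Gm20754/Csmd3 cluster 2 of 15 were called lower, beside 4.63% of all genes. These were Znrf3, with 7 and 77 UMIs, and Tcf7l1, with 11 and 89 UMIs. In the Kcna1/Cadm2 cluster 0 of 19 were called. Another secreted antagonist, Sostdc1, was at 424 and 311 CPM in the Kcna1/Cadm2 cluster. Perineurial-like cells of the DMSO vehicle library had the ligand Wnt6 at 379 CPM and the receptor Fzd2 at 599 CPM beside Sfrp5, and the 5 ATRA+agonist cells held 6 and 4 UMIs of them.

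The genes whose levels followed each antagonist most closely were found by Pearson's r over 20 profiles of log2(CPM + 10), 1 for each library in the 10 classes with at least 50 cells in each library. Perineurial-like cells were too few to be a profile. For Sfrp2 these were Wfdc1 (r = 0.995), Cpxm1, Nat8f3, Hand2os1 and Tbx5, and for Dkk2 they were Clec3b (r = 0.986), Pi16, Lbp, Wnt5a and Adgrd1. Wif1 was followed by Hecw1 (r = 0.997), Uts2r, Cilp2, Ptx4 and Pitx1, and Dkk3 by Lpar3 (r = 0.929), Angptl7, Pappa2, Scube2 and Fbn2. Sfrp1 was closest to Lsamp (r = 0.977), Nr1h4, Dpp6, Pappa and Slc25a21, and Sfrp4 to Nrk (r = 0.975), 5033428I22Rik, Hebp2, Tspan11 and Ptgfr. Sfrp5 was closest to Vmn1r181 (r = 0.999), Gm42825, Gm20754, Grik1 and Fxyd3. Profiles of 1 library share their preparation and their free RNA, and genes near 0 in all but 1 class give a high r whatever their function.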

How the data were processed

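The authors digested quadriceps and gastrocnemius muscle, sorted live cells, pooled 2 mice per group, prepared 10x Genomics 3-prime libraries and counted them with Cell Ranger 7.2.0 on mm10 (GRCm38). The deposited values are raw UMI counts per gene and barcode. From these counts, cells were kept as the study describes, with 300 to 5000 genes, under 20% mitochondrial and under 0.25% Hbb UMIs, and the 7.5% of cells with the highest rebuilt doublet score removed. Libraries were merged without batch correction, scaled to 10000, reduced to 30 components of 2000 variable genes and clustered (leidenalg 0.10.2, 20 neighbors, resolution 1.5).

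A cluster could be named for a class with at least 3 markers that had 10 UMIs and a 2-fold higher level, with 10 CPM added. Of such classes the one with the largest mean marker fold was taken. The name was withdrawn where another class had more markers among the 10 leading genes, as in the Tenm2/Apod cluster. It was also withdrawn in shallow clusters without a leading marker of the class, as in the Cfd/Ccl8 cluster. Both Schwann lists were pooled, as were lymphatic and other endothelial cells, after the clusters had been seen. UMIs were summed per library and class. CPM have exact Poisson intervals, shares exact Clopper-Pearson intervals and log2 ratios exact conditional intervals, all at 95%. The calculation was checked on simulated data. The 8 antagonists and the lists were chosen with earlier results of these data known. All 8 genes are reported, with pathway genes of at least 50 UMIs in a class and the 5 genes most alike. Companion genes within a cluster are the largest differences found in both libraries among genes with at least 100 UMIs, in cells with 2 UMIs or more of the antagonist, on the log2(CPM + 10) scale, a rule added after the data had been seen. Alternatives were 10 planned settings and 1 added later, without the cell with the most UMIs. Positions come from GENCODE and promoters from RefSeq (GRCm38.p6).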

Additional observations from a re-analysis of the deposited data

Results flagged for a closer look

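For 3 of the antagonists the log2 ratio of ATRA+agonist over vehicle had intervals on opposite sides of 0 in different classes or clusters. The difference between the classes was not tested in any of these cases. Sfrp1 was higher with ATRA+agonist in the Gdf10/Fst cluster (0.35) and lower in the Cxcl14/Smoc2 cluster (-0.32), in all Schwann-like cells (-0.39) and in the Kcna1/Cadm2 cluster (-0.56). Sfrp4 was higher in all FAP-like cells (0.18), in the Gdf10/Fst cluster (0.20), in the Sema3c/Pi16 cluster (0.94) and in tenocyte-like cells (3.01), and lower in the Cxcl14/Smoc2 cluster (-1.73), where 1 DMSO vehicle cell held 48 of 83 UMIs. Sfrp5 was higher in the 5 perineurial-like cells (1.22), and lower in all Schwann-like cells (-1.45) and in the Gm20754/Csmd3 cluster (-1.96). Without doublet removal the Sfrp5 values of perineurial-like and Schwann-like cells were -0.19 and -0.21.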

How the results depend on the processing

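With 1 library per group, no difference can be told apart from one between mice or pools, and classes of few cells carry wide intervals. Levels of the 8 genes rest on 28 and 38 UMIs for Frzb and on more for the others, and the cause of each change below was not tested. No paired analysis was possible because each group has 1 library. Of the values that answer a comparison, 124 alternative values lay within the interval of the reported value. Another 30 lay outside it in the same direction, and 12 lay outside it with the direction turned. The Wif1 ratio in tenocyte-like cells lay within it under all 11 alternatives. The Sfrp2 ratio in tenocyte-like cells and the Dkk2 and Sfrp4 ratios in FAP-like cells kept their direction under all 11.

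The others moved as follows, where a ratio is log2 of ATRA+agonist over vehicle and a fold is log2 of the highest class over the next. Each negative Sfrp5 ratio and each negative fold given here had the direction turned. Without doublet removal the ratios were 0.01 for Sfrp1 and -0.19 for Sfrp5, both with the direction turned, and the folds were 0.81 for Sfrp1, 2.51 for Sfrp2, -0.03 for Sfrp4 and 0.17 for Dkk2. With 15% of cells removed as doublets the ratios were -3.72 for Sfrp5 and 0.42 for Dkk2, and the folds were -0.02 for Sfrp1, -2.34 for Sfrp5, 1.51 for Dkk2 and -3.10 for Dkk3. With a minimum of 500 genes the Sfrp5 ratio was -1.53, and the folds were 2.10 for Sfrp1, 1.78 for Sfrp4 and 2.84 for Sfrp5. With a 10% mitochondrial limit the ratios were -0.63 for Sfrp1 and 0.03 for Sfrp5, and the folds were 2.07 for Sfrp1, -0.06 for Sfrp2, 0.69 for Sfrp4 and 1.62 for Dkk2. Here the next class for Sfrp2, Sfrp4 and Dkk2 was named mast cell-like. Without the hemoglobin filter the ratios were -1.80 for Sfrp5 and 0.17 for Dkk2, and the folds were 0.09 for Sfrp1, 0.12 for Sfrp5 and -1.61 for Dkk3. At resolution 0.8 the Sfrp5 ratio was -1.77, and the folds were 1.72 for Sfrp4, 2.23 for Sfrp5 and 0.05 for Dkk3. At resolution 2.5 the Dkk2 ratio was 0.23, and the folds were 2.23 for Sfrp2, 1.63 for Sfrp4 and 0.46 for Dkk2. With classes from the marker UMIs of each cell alone, the Sfrp5 ratio was 2.12 and the Wif1 fold 7.32. After thinning to 1000 UMIs the ratios were 0.38 for Sfrp2, 0.68 for Sfrp4 and 1.71 for Sfrp5, and the folds were 3.38 for Sfrp5 and 8.80 for Wif1. The class named perineurial-like held 5 and 65 cells here, and from 2 to 150 ATRA+agonist and from 40 to 202 DMSO vehicle cells under the alternatives.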

Other observations

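In the Kcna1/Cadm2 Schwann-like cluster, Sfrp1 and Sfrp5 were often detected in the same cells. When cells were thinned to 4000 UMIs, 5 of 12 ATRA+agonist cells with Sfrp1 also had Sfrp5, where the product of the separate shares gives 2.57 cells, and 18 of 34 DMSO vehicle cells did, against 10.3. Cells of this cluster with at least 2 Sfrp1 UMIs had more Abi3bp, a matrix-binding protein, at 942 against 145 CPM with ATRA+agonist and 850 against 210 CPM with vehicle. Cells with at least 2 Sfrp5 UMIs also had more Abi3bp, at 1108 against 219 CPM and 814 against 239 CPM.

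In the Sema3c/Pi16 cluster the Sfrp2 cells had more Pdgfd, a platelet-derived growth factor, at 234 against 54.2 CPM with ATRA+agonist and 226 against 31.8 CPM with vehicle. Sfrp2 and Sfrp4 were both detected in 14 of 318 thinned ATRA+agonist cells of this cluster, against a product of 7.47, and in 4 of 341 DMSO vehicle cells, against 1.52.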
